A study of Mus musculus with 10 samples.

Results

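The mRNAs of 9 factors of nonsense-mediated decay, Upf1, Upf2, Upf3a, Upf3b, Smg1, Smg5, Smg6, Smg8 and Smg9, were followed in the embryonic cortex of Magoh mutant and wild-type mice. The 9 genes were found by the Entrez gene numbers of the deposited annotation, and they are 9 of the 20405 genes that the array measured. Each of them had 1 probe set, so no choice between probe sets was needed. Magoh mutant embryos were heterozygous for the Mos2 allele of Magoh on the C57BL/6 background, and wild-type embryos were C57BL/6. Both genotypes were taken at E10.5, and 5 arrays per genotype were hybridised with total RNA, per the labels 1 pair of cortices from 1 embryo each. The dissection holds all cells of the cortices, and the labels give neither sex nor litter.

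Nonsense-mediated decay is the surveillance route that clears mRNAs on which translation ends too early. After splicing, exon junction complexes, which contain Magoh, Rbm8a and Eif4a3 at their core, stay on the mRNA near the joined exons. A complex left downstream of a terminating ribosome can be linked through Upf3b and Upf2 to the helicase Upf1. The kinase Smg1, held in check by Smg8 and Smg9, then phosphorylates Upf1, and Smg5 and Smg6 bind the phosphorylated form and help bring about cleavage or decay of the mRNA. In cultured cells, mRNAs of several of these factors are themselves substrates of the pathway, and in humans variants of UPF3B are linked to intellectual disability. The comparison asks whether the mRNAs of these factors differ in cortex with 1 mutant Magoh copy.

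Values are RMA levels on the log2 scale, and differences are Magoh mutant minus wild type on that scale. Magoh itself had levels of 10.31, 10.30, 10.37, 10.17 and 9.92 on the mutant arrays, against 11.07, 11.08, 11.14, 11.06 and 10.90 on the wild-type arrays. The groups did not overlap, and Magoh fell by 0.84 (SE 0.08, limma adjusted p = 8.5e-05). Of 12 telencephalon markers, 10 had a mean level at or above 8.57, the level that 95% of negative controls stay below on an average array, as did 5 of 14 neuron, 7 of 13 red cell, 6 of 12 mesenchyme, 2 of 12 endothelial and 0 of 12 macrophage markers. Mutant array 1 stood apart from the other arrays. On it 1069 genes lay over 0.5 from their wild-type mean, compared with 121 to 271 genes on the other mutant arrays and 9 to 23 on the wild-type arrays. Mutant array 5 had the next highest number, and limma's array weights were lowest for mutant array 1 (0.254) and mutant array 5 (0.411), so the main results on the 9 factors are also given without them where the value shifts.

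No decay factor passed the test. Of the 9 genes, 0 rose and 0 fell at a limma adjusted p under 0.05, where 0.573% of all genes were called, 53 of them higher and 64 lower in mutants. Smg9 and Smg6, or 2 of 9, were higher at an unadjusted p under 0.05, beside 4.57% of all genes, and 0 were lower. That pair depended on the arrays: without mutant array 1 the factors past the same unadjusted threshold were Upf2 and Smg9, and without mutant arrays 1 and 5 it was Upf2 alone. The share of all genes past the unadjusted threshold was not counted in those fits, and 4.57% is that of the fit with all arrays. The difference was above 0 in 7 of 9 genes, beside 51.0% of all genes, and the median over the 9 was 0.12, beside a median of 0.0025 over all 20405 genes. The median over the 9 was 0.06 without mutant array 4. In 0 of 9 genes were the 5 mutant and 5 wild-type values free of overlap, a pattern that 2.82% of all genes showed. In whole cortex, a lower level can come from fewer cells that hold the mRNA or from less of it per cell, and these cannot be told apart.

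**Figure D1:**
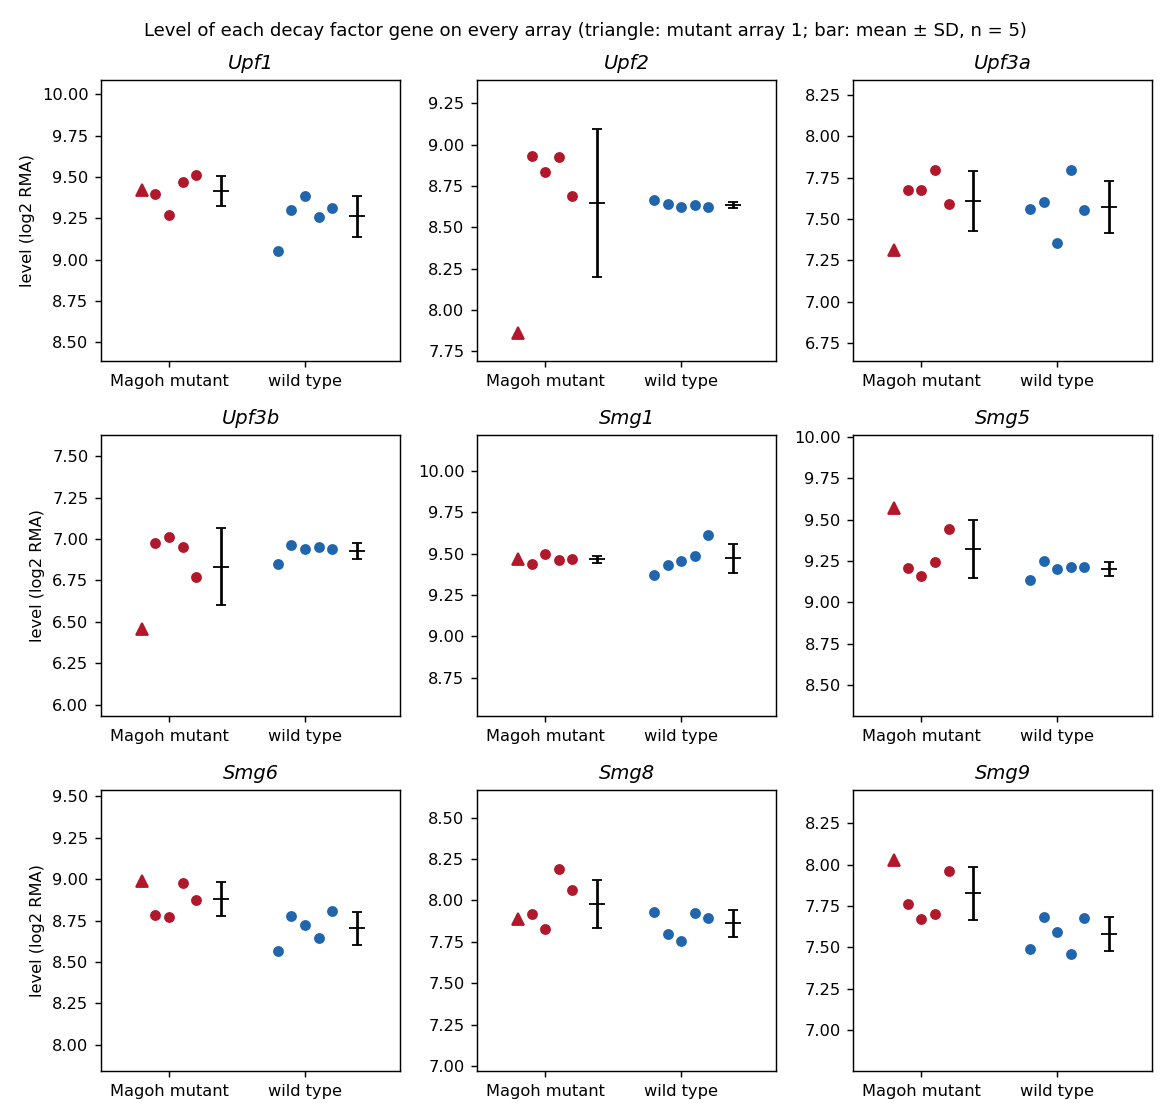
Levels of the 9 decay factor genes (log2 RMA, vertical axis) on the 5 Magoh mutant arrays (red, left) and the 5 wild-type arrays (blue, right), with the mean ± SD in black; every panel spans the same range. Mutant array 1, the triangle, is the lowest of the 10 arrays for Upf2, Upf3a and Upf3b and the highest for Smg5, Smg6 and Smg9.

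Upf2, the adaptor that joins Upf1 to Upf3 proteins, gave the most uneven values among the mutants. Its level was 7.86, 8.93, 8.83, 8.92 and 8.69 on mutant arrays 1 to 5, against 8.66, 8.64, 8.62, 8.63 and 8.62 on the wild-type arrays. Mutant arrays 2 to 5 lay above all 5 wild-type arrays, a pattern that 2.97% of all genes and 1 of the 9 factors showed, while mutant array 1 lay below them. The SD was 0.45 in mutants and 0.02 in wild type (n = 5 each). The Upf2 means, 8.65 in mutants and 8.64 in wild type, lay just above 8.57, and mutant array 1 lay below it. On single arrays, the level that 95% of negative controls stay below ran from 8.37 to 8.86, so background can enter these values. Over all arrays the difference was 0.01 (SE 0.15, 95% interval -0.32 to 0.34, limma adjusted p = 0.992). Without mutant array 1 the difference was 0.21 (95% interval 0.07 to 0.34, limma adjusted p = 0.165), and 0 of 9 factors were called, beside 0.907% of all genes. Without mutant arrays 1 and 5, a choice made after the values were seen, the difference was 0.26 (95% interval 0.14 to 0.38, limma adjusted p = 0.0284). In that fit Upf2 was the 1 factor called, beside 2.46% of all genes.

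Markers of other cells also differed between the arrays. All 13 red cell genes measured had a difference above 0, with 0.25 as their median. Their mean level ran between 9.38 and 9.92 on the mutant arrays and between 9.30 and 9.59 on the wild-type arrays. By limma 0 of them were called with all arrays, although 9 were higher at an unadjusted p under 0.05, beside 4.57% of all genes. Without mutant array 1, 3 of them were called, beside 0.907% of all genes. Relative to the wild-type mean, the red cell list lay at -0.06 on mutant array 1, at 0.22 to 0.49 on mutant arrays 2 to 4 and at 0.41 on mutant array 5. Neuron markers had the median farthest from 0 among these lists, -0.47, and 1 of 14 had a difference above 0. Of the 14, 7 fell, beside 0.573% of all genes called in either direction. The neuron list had a mean level between 7.19 and 7.75 on the mutant arrays and between 7.83 and 8.14 on the wild-type arrays. Their mean relative to wild type was -0.46 on mutant array 1, inside the range of the other mutants. Endothelial, macrophage and mesenchyme lists had 0 genes called and medians of 0.13, -0.10 and -0.10. A difference above 0 was found in 12 of 12 endothelial, 1 of 12 macrophage and 2 of 12 mesenchyme genes, beside 51.0% of all genes. The part of any of these cells in the values of the decay factors was not tested.

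Upf1, the helicase at the centre of the pathway, had levels of 9.42, 9.39, 9.27, 9.47 and 9.51 on the mutant arrays, against 9.05, 9.30, 9.38, 9.26 and 9.31 on the wild-type arrays. In 4 of 5 mutants it exceeded every wild-type array, as was also so for Upf2 and Smg9, and mutant array 3 lay within the wild-type range. The share of all genes with any 4 of 5 mutants above every wild-type array was not counted. The difference was 0.15 (SE 0.07, 95% interval -0.0034 to 0.31, limma adjusted p = 0.552), a ratio of 1.11 with an interval of 0.998 to 1.24. Wild-type array 1 was the lowest of the 10 arrays, and without it the difference was 0.10. Unlike for Upf2, leaving out mutant array 1 changed little, with a difference of 0.15. Mutant array 5 was the highest of the 10 arrays for Upf1. With mutant array 5 left out as well, the Upf1 difference was 0.12 (95% interval -0.05 to 0.28), and with array weights on all 10 arrays it was 0.11.

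The paralogs Upf3a and Upf3b, which in cultured mammalian cells bind Upf2 and, for Upf3b in particular, the exon junction complex, both had levels below 8.57 in both genotypes, where background can compress a difference. Upf3a had levels of 7.31, 7.68, 7.68, 7.79 and 7.59 on the mutant arrays, against 7.56, 7.60, 7.35, 7.80 and 7.56 on the wild-type arrays. The groups overlapped widely, with a difference of 0.04 (SE 0.09, 95% interval -0.16 to 0.24, limma adjusted p = 0.952). For Upf3a the difference was 0.11 with mutant array 1 left out, and 0.14 with mutant array 5 left out as well. Upf3b, which lies on the X chromosome, had levels of 6.45, 6.98, 7.01, 6.95 and 6.77 on the mutant arrays, against 6.85, 6.96, 6.94, 6.95 and 6.94 on the wild-type arrays. Its mutant arrays 1 and 5 lay below all wild-type arrays, and the other 3 mutants lay close to the wild-type level or just above it. The difference was -0.10 (SE 0.09, 95% interval -0.29 to 0.10, limma adjusted p = 0.836). With mutant array 1 left out it was -0.0008, and with mutant array 5 left out as well it was 0.05, so its sign rests on those 2 arrays. With the level of 4 Y-linked genes as a covariate for embryo sex, the Upf3b difference was again -0.10.

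Of the Smg1 kinase complex, the kinase gene itself showed the least difference. Smg1 had levels of 9.47, 9.44, 9.50, 9.46 and 9.47 on the mutant arrays, against 9.37, 9.43, 9.46, 9.48 and 9.61 on the wild-type arrays. All mutants lay inside the wild-type range, and the difference was -0.0052 (SE 0.06, 95% interval -0.13 to 0.12, limma adjusted p = 0.991). As a ratio of mutant to wild type this interval ran between 0.911 and 1.09, and it stayed close to that range in the fits without mutant array 1.

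Smg9, a subunit that restrains the kinase and bridges it to Smg8, had the largest difference among the 9 with all 10 arrays weighted equally, whereas Upf2 exceeded it with array weights (0.19 for Upf2 and 0.17 for Smg9) and in the fits without mutant array 1. Its levels were 8.03, 7.76, 7.67, 7.70 and 7.96 on the mutant arrays, against 7.49, 7.68, 7.59, 7.46 and 7.68 on the wild-type arrays. In 4 of 5 mutants the level exceeded every wild-type array, and mutant array 3 lay just below the highest of them. The mean was 7.83 ± 0.16 in mutants and 7.58 ± 0.10 in wild type (SD, n = 5 each), a difference of 0.24 (SE 0.08, 95% interval 0.07 to 0.42) and a ratio of 1.18. Its unadjusted p was 0.00859 and its limma adjusted p 0.275. Leaving out 1 array at a time gave differences of 0.19 to 0.28 and limma adjusted p of 0.231 to 0.549, and without mutant arrays 1 and 5 the difference was 0.13 (limma adjusted p = 0.346). Smg8, the other inhibitory subunit, had levels of 7.89, 7.92, 7.83, 8.19 and 8.07 on the mutant arrays, against 7.93, 7.80, 7.76, 7.93 and 7.89 on the wild-type arrays. Mutant arrays 4 and 5 lay above the wild-type range and the other 3 within it. The difference was 0.12 (SE 0.08, 95% interval -0.04 to 0.28, limma adjusted p = 0.708), and 0.06 without mutant array 4. Both genes had levels below 8.57 in both genotypes.

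Smg5 and Smg6 act after phosphorylation of Upf1: Smg6 is the endonuclease that cuts the mRNA, and Smg5 takes part in recruiting decay enzymes and the phosphatase. Smg6 had levels of 8.99, 8.79, 8.77, 8.98 and 8.87 on the mutant arrays, against 8.56, 8.77, 8.72, 8.65 and 8.81 on the wild-type arrays. Mutant arrays 1, 4 and 5 exceeded every wild-type array. The mean was 8.88 ± 0.10 in mutants and 8.70 ± 0.10 in wild type (SD, n = 5 each), a difference of 0.18 (SE 0.07, 95% interval 0.03 to 0.33) and a ratio of 1.13, with an unadjusted p of 0.0242 and a limma adjusted p of 0.423. With mutant array 1 left out the Smg6 difference was 0.15 (unadjusted p = 0.0508 in limma), and with mutant array 5 left out as well it was 0.14 (unadjusted p = 0.0775). Smg5 had levels of 9.57, 9.21, 9.16, 9.24 and 9.44 on the mutant arrays, against 9.13, 9.25, 9.20, 9.21 and 9.21 on the wild-type arrays. Mutant arrays 1 and 5 stood above the wild-type range, and the other 3 lay inside it. The difference of Smg5 was 0.12 (SE 0.08, 95% interval -0.04 to 0.29, limma adjusted p = 0.705) with all arrays. It was 0.06 with mutant array 1 left out, and 0.0010 with mutant array 5 left out as well.

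**Figure D2:**
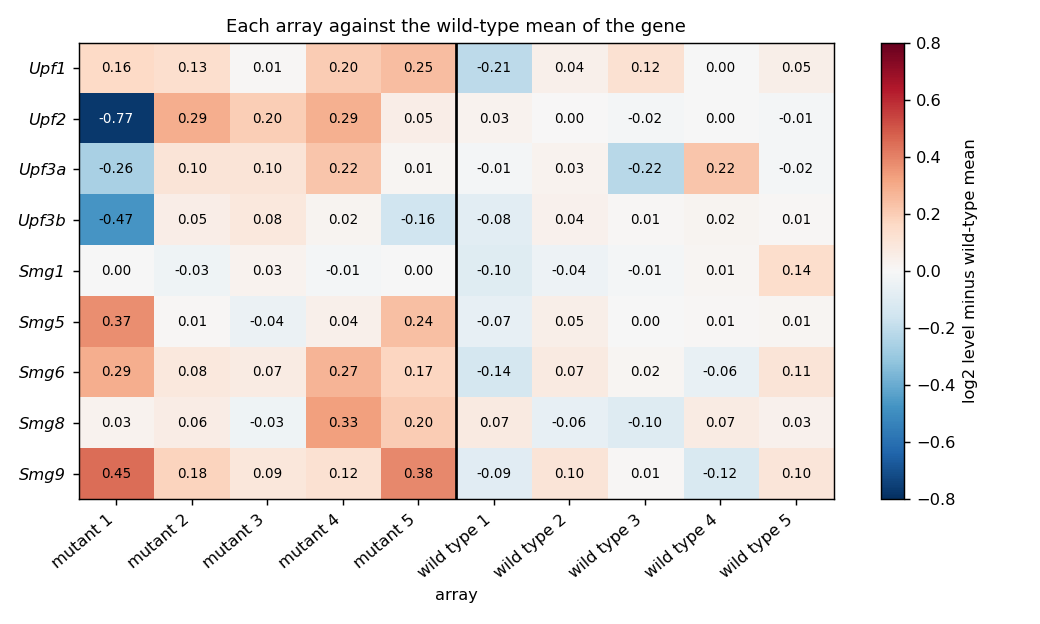
Level of each decay factor gene on each array minus its own wild-type mean (log2, colour and printed number), with the Magoh mutant arrays left of the black line and the wild-type arrays right of it. On mutant array 1, Upf2, Upf3b and Upf3a lie at -0.77, -0.47 and -0.26, and Smg9, Smg5 and Smg6 at 0.45, 0.37 and 0.29.

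The factors did not vary as one block from array to array. On mutant array 1 the adaptor genes Upf2, Upf3a and Upf3b had their lowest level of all 10 arrays, and Smg5, Smg6 and Smg9 their highest. Their deviations from the wild-type mean on this array were -0.77 for Upf2, -0.47 for Upf3b and -0.26 for Upf3a, against 0.45 for Smg9, 0.37 for Smg5 and 0.29 for Smg6. A mean over the 9 genes, -0.02 on this array, therefore hides opposite values, and on mutant arrays 2 to 5 that mean was 0.10, 0.06, 0.16 and 0.13, compared with -0.07 to 0.05 on the wild-type arrays. Wild-type array 1 was also uneven, with the lowest level of 4 of the 9 genes (Upf1, Smg1, Smg5 and Smg6). The share of all genes with their lowest or highest level on either of these arrays was not counted. Mutant array 1 also had the most genes over 0.5 from their wild-type mean (1069 of all 20405 genes). That is another measure, which among the factors only Upf2 passed on this array. Whether such extremes are particular to the factors was not tested. In 7 of 9 genes the SD was larger in mutants than in wild type, beside 73.3% of all genes.

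**Figure D3:**
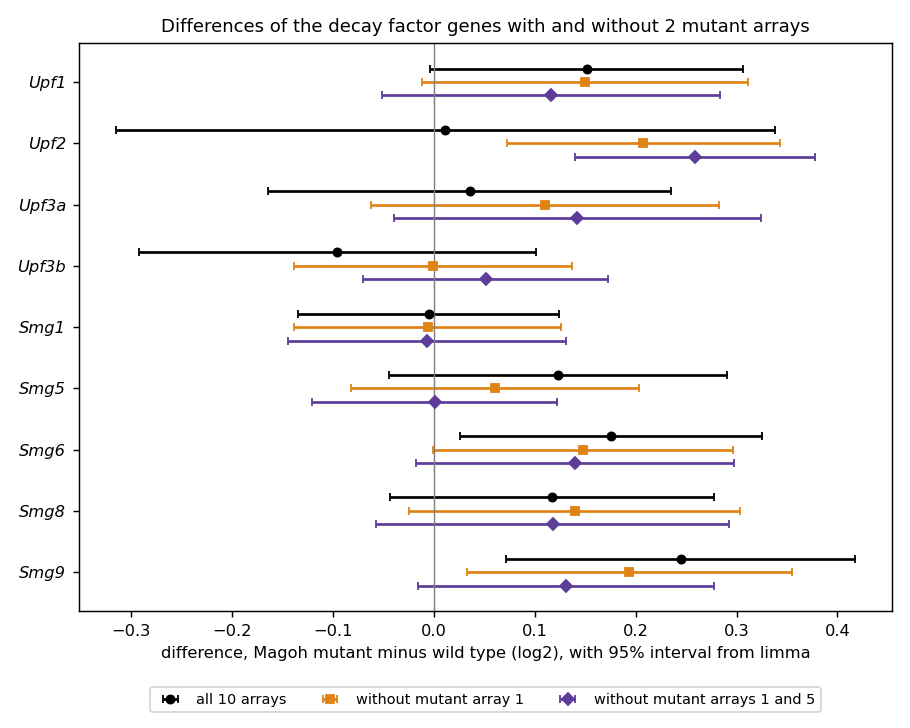
Difference of each decay factor gene, Magoh mutant minus wild type (log2), with limma's 95% interval, from all 10 arrays (black), with mutant array 1 left out (orange) and with both mutant arrays 1 and 5 left out (purple). Upf2 lies at 0.01, 0.21 and 0.26 in these 3 fits, while Smg1 lies at -0.0052, -0.0060 and -0.0065.

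The promoters of 4 genes are shown because these genes lay farthest from their wild-type mean, in opposite directions, on mutant array 1. The sequences are those of RefSeq on assembly GRCm38.p6 and run 5′ to 3′ over 250 bases before and 50 bases after the gene's start. They lie at chr2:5951219-5951518 on the plus strand for Upf2, chrX:37110273-37110572 on the minus strand for Upf3b, chr3:88336010-88336309 on the plus strand for Smg5 and chr7:24399378-24399677 on the plus strand for Smg9. Capitals mark matches on either strand to 6 motifs. CCGGAAGT is the core bound by ETS factors, and TATAAA is the letter run of the classical core promoter box upstream of many start sites. CCAAT is the box bound by the factor NF-Y, and TGACGTCA the cyclic AMP response element. GCGCATGC is a core bound by NRF1 and TCGCGAGA one bound by BANP, and these 2 were added after the sequences had been read. Matches of GCGCATGC on opposite strands overlap in Smg9, as do matches of TCGCGAGA in Upf3b.
Upf2: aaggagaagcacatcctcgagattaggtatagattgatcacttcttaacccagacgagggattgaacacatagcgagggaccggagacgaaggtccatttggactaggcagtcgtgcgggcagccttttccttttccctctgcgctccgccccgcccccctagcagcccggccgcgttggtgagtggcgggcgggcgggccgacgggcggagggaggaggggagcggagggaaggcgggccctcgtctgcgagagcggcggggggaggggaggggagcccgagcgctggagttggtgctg
Upf3b: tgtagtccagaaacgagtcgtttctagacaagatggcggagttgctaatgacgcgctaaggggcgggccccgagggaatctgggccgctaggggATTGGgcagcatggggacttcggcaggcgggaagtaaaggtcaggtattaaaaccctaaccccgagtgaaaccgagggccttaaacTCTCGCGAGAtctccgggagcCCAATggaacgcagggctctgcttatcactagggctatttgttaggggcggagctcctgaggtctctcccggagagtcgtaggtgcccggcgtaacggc
Smg5: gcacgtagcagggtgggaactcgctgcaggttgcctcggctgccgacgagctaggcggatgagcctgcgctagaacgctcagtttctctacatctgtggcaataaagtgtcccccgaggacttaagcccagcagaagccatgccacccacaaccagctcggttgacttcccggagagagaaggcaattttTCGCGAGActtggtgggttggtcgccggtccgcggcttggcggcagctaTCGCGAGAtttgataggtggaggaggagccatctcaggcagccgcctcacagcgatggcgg
Smg9: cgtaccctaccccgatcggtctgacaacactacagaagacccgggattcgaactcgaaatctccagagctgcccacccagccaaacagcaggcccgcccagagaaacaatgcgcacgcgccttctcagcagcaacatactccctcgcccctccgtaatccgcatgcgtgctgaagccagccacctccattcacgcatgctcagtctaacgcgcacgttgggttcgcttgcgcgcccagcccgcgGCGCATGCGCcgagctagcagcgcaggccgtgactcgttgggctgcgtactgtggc

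The 9 promoters had a median GC content of 66.0% and a median of 29 CpG dinucleotides in 300 bases, compared with 52.7% and 7 over all 32851 promoters of the table. Smg8 was lowest among the 9, with a GC content of 53.3% and 18 CpG dinucleotides. CCAAT was found in 4 of the 9 (Upf3a, Upf3b, Smg1 and Smg8) and in 37.4% of all promoters. GCGCATGC was found in Upf1 and Smg9 and in 2.71% of all promoters, and TCGCGAGA in Upf3b and Smg5 and in 0.995%. Because these 2 motifs were added after the sequences had been read, their matches beside these shares are no test of enrichment. TATAAA (13.6% of all promoters), CCGGAAGT (3.89%) and TGACGTCA (1.79%) had 0 matches in these 9 windows. Of the 4 genes printed, Upf3b, low on mutant array 1, and Smg5, high on it, share TCGCGAGA, and Upf2 had no match in its window.

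In the rest of the pathway few genes passed the test. Of 16 other factors, limma called 0, beside 0.573% of all genes, and the median difference was 0.04. Of these factors, 1 was higher without adjustment (limma p under 0.05), beside 4.57% of all genes, and 0 were lower. Those with the smallest p included Pabpc1, the poly(A)-binding protein that opposes decay near a normal stop codon (0.12, SE 0.06), Secisbp2, a selenoprotein translation factor (0.11, SE 0.07), and Ncbp1, of the nuclear cap-binding complex (0.08, SE 0.06), with limma adjusted p of 0.531 to 0.717. Of 18 enzymes and cofactors of mRNA turnover, limma called 0, and the median was 0.0085. Without adjustment 3 of them were higher, beside 4.57% of all genes, and 1 was lower. The share of all genes lower without adjustment was not counted. Pan3, a deadenylase subunit, differed by 0.21, the deadenylase Cnot6 by -0.19, the exosome nuclease Exosc10 by 0.16 and the decapping cofactor Dcp1a by 0.16, with limma adjusted p of 0.283 to 0.486.

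Among 12 genes of the exon junction complex, Magoh alone was called in this fit, and the median of the list was 0.02. The core partners Rbm8a and Eif4a3 differed by 0.07 (SE 0.06) and 0.03 (SE 0.07), Casc3 by 0.11 (SE 0.07) and the paralog Magohb by 0.02 (SE 0.09), with limma adjusted p of 0.737 or more. Among peripheral genes, Srrm1, a splicing coactivator, differed by 0.20, Rnps1, which links the complex to decay, by 0.12, and Pym1, which takes the complex off mRNA at the ribosome, by 0.10, with limma adjusted p of 0.275, 0.703 and 0.713. Of 23 measured transcripts known as substrates of decay in various cell types, 1 rose, 0 fell and 22 did not pass. Beside this, 0.573% of all genes were called in either direction. The median of the list was 0.05. The riser was Atf4, a stress transcription factor whose mRNA carries upstream reading frames, with levels of 9.52, 9.37, 9.42, 9.37 and 9.52 on the mutant arrays, against 9.14, 9.13, 9.14, 9.07 and 9.15 on the wild-type arrays (difference 0.31, SE 0.06, limma adjusted p = 0.0248). Its groups did not overlap, but the call was lost without any 1 of 6 arrays (mutant array 3 and each wild-type array), with limma adjusted p up to 0.0878 and differences of 0.296 to 0.316 in those 6 fits. Trib3 and Zfas1, at 0.21 each, and Ptbp2, at -0.21, did not pass. The median of the substrate list was 0.0055 when all probe sets of a gene were averaged, and levels per probe set do not separate isoforms with an early stop codon. Without mutant array 1 the list medians were 0.08 for the other factors, 0.02 for the turnover enzymes, 0.07 for the exon junction complex and 0.02 for the decay substrates. With mutant array 5 left out as well, Cnot6 differed by -0.08 and Casc3 by 0.05. Magohb, Secisbp2, Dcp1a, Pym1 and Trib3 had mean levels below 8.57 in both genotypes, where a difference can include background.

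**Figure D4:**
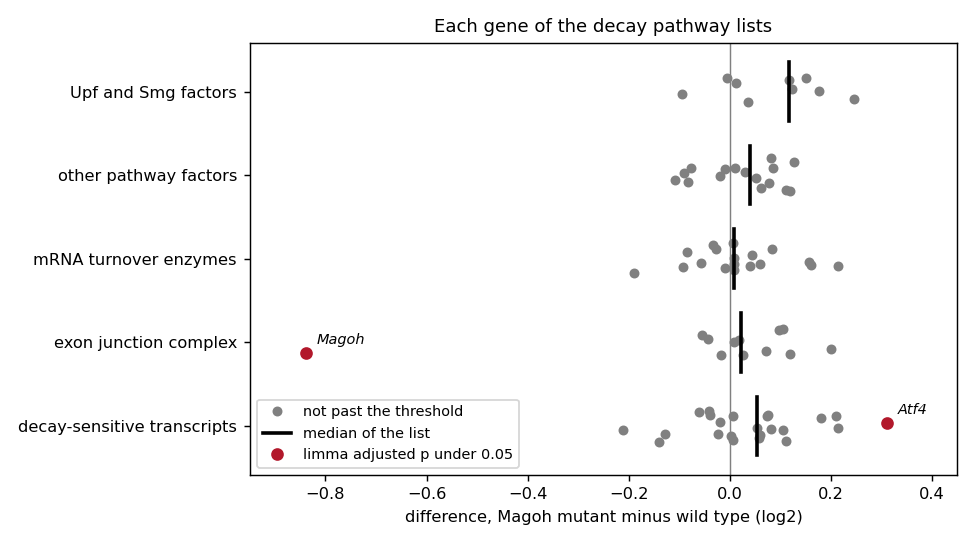
Difference of each gene, Magoh mutant minus wild type (log2, horizontal axis), for the 9 Upf and Smg factors and 4 further lists of the pathway, with the median of each list as a black bar. Magoh at -0.84 and Atf4 at 0.31 are the 2 genes past a limma adjusted p of 0.05 (red), and the 9 factors lie between -0.10 and 0.24.

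Genes whose level followed the mean of the 9 factors most closely over the 10 arrays were Hsp90ab1, a heat shock protein chaperone (Pearson r = 0.95, Spearman rho = 0.98), the phosphatase gene Ptp4a1 (r = 0.94, rho = 0.95), the ribosome biogenesis genes Tsr2 (r = 0.93, rho = 0.90) and Nop16 (r = 0.93, rho = 0.94), and Apaf1, of the apoptosome (r = 0.93, rho = 0.93). They are the 5 highest r of 5400 genes with a mean at or above 8.57 and so are a description without a p, over arrays that were normalised together. Without the 2 arrays farthest from the median (mutant array 4 and wild-type array 1) their r was 0.85 to 0.94. Their own differences were 0.08 to 0.23, and 0 of the 5 were called (limma adjusted p 0.374 to 0.806). The mean of the 9 joins opposite values on mutant array 1, such as -0.77 for Upf2 and 0.45 for Smg9 against the wild-type mean. A gene that follows this mean need not follow each factor.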

How the data were processed

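Total RNA from E10.5 cortex of 10 embryos (300 ng per array) was labelled for Affymetrix GeneChip 1.0 ST arrays, per the labels' protocols. The submitters' processing notes name Affymetrix Expression Console and RMA for the deposited log2 levels, 1 per probe set and array. RMA corrects background, normalises arrays to a common distribution and summarises probes, which removes any shift common to all genes and compresses small levels. Neither their versions nor a build were given in the sources used here. By annotation columns that the authors deposited (other text: probe set, Entrez number, accession, title), genes were assigned to 23322 probe sets through the Entrez number and to 465 by accession through the GRCm38.p6 gene table. Of 35557 probe sets, 6546 were controls. A second deposited table holds 10 per-sample columns whose names match no label, and these were not used. The probe set with the highest mean was kept per gene, giving 20405 genes, with no filter on dim genes. Arrays have no depth, and their number limits the precision.

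Mutant minus wild type was fitted with limma 3.58.1 (lmFit, eBayes; R 4.3.3), using the 10 arrays and no covariate, with Benjamini-Hochberg adjustment across the 20405 genes. A gene was called at an adjusted p under 0.05. The script was tested on simulated data. The labels call the arrays biological replicates, and no batch is recorded. The 9 factors and the lists were chosen with earlier results of these data known. Named were the 9 factors, Magoh, Magohb, Rbm8a, Eif4a3 and Casc3, the 4 genes with the smallest p in each pathway list, of which 1 is not reported here, and the 5 genes most like the mean of the factors. Lists of cell markers were telencephalon, neurons, red cells, endothelium, macrophages and mesenchyme. For telencephalon, 0 of 12 were called, with a median of -0.10, and 4 were lower at an unadjusted p under 0.05 in limma. The share of all genes lower at that unadjusted threshold was not counted. Without mutant array 1, 0 were called, and without mutant arrays 1 and 5, 5 were called, beside 2.46% of all genes. Relative to the wild-type mean, the telencephalon list lay at 0.04 on mutant array 1 and -0.12 on mutant array 5. It lay at -0.18 to -0.14 on mutant arrays 2 to 4. Alternatives changed the normalization, centring, dim filter, probe sets, variance model, array weights, replicate block, sex covariate and threshold, and left out each array in turn. Leaving out mutant arrays 1 and 5 together, and mutant array 1 with the block, was added after the data were seen.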

Additional observations from a re-analysis of the deposited data

Results flagged for a closer look

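Among 29 named genes, the 5 values of each genotype were screened for an array far from the others, and 4 of 58 groups held one, where chance gives about 1 in 20. Upf2 on mutant array 1 had a level of 7.86, and the nearest other mutant had 8.69. Upf3b on wild-type array 1 had 6.85, and the nearest other wild-type array had 6.94. Dcp1a on wild-type array 4 had 8.40, with the nearest at 8.20, and Srrm1 on wild-type array 3 had 9.74, with the nearest at 9.67. For Upf2 the gap was 0.775 of the whole range of the mutants. The causes were not tested.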

How the results depend on the processing

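Under the other normalizations, models and thresholds 0 of the 9 decay factors were called. The filters on dim genes tested fewer of them, 5 at a mean at or above 8.57 and 8 at a mean of at least 7, and 0 of these were called. The 1 alternative with a call was the added one without mutant arrays 1 and 5 (1 factor, Upf2, difference 0.26). Leaving out 1 array at a time gave 0 called factors each time and a median difference between 0.0647 (without mutant array 4) and 0.155. The number of genes called, 117 with all arrays, was 72 when only genes with a mean at or above 8.57 were tested, 408 with array weights, 224 at an adjusted p under 0.1, 502 without mutant arrays 1 and 5, 70 without mutant array 1 in the fit with the replicate block, and 64 to 185 with 1 array left out. It was 185 without mutant array 1 and 64, 66 and 71 without wild-type arrays 2, 1 and 3. Among the decay substrates, 0 were called under quantile normalization (Atf4 difference 0.294, adjusted p = 0.0554 in limma), with the replicate block (0.31, adjusted p = 0.0591) and without mutant array 1 in the blocked fit (0.294, adjusted p = 0.0897), and 0 to 1 with 1 array left out. The median of that list, 0.0526, was 0.0055 with the mean over all probe sets, 0.0228 with array weights, 0.0089 without mutant array 1 in the blocked fit, and 0.0193 to 0.0514 with 1 array left out.

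Of the differences whose sign turned, Upf2 was -0.0049 under quantile normalization, Smg1 0.0031 after centring on array medians and Upf3b 0.0516 without mutant arrays 1 and 5. With 1 array left out, Upf2 ranged over -0.0589 to 0.21, Upf3a over -0.0196 to 0.11, Smg1 over -0.0296 to 0.0297, Eif4a3 over -0.0064 to 0.0779 and Magohb over -0.0251 to 0.0925. Deviations of same-numbered arrays correlated at -0.07 to 0.36, and 2 of 5 mutant arrays were best matched to their own number. The labels give no litter, so whether replicate numbers pair the arrays cannot be told from these values. The replicate block gave 83 called genes and 0 called factors. Where values lie below 8.57, signal over background limits the size of a difference. By their means this holds for Upf3a, Upf3b, Smg8 and Smg9, and also for Magohb, Secisbp2, Dcp1a, Pym1 and Trib3. Single levels below 8.57 were also found for Upf2 (7.86 on mutant array 1) and Smg6 (8.56 on wild-type array 1). The causes of these shifts were not tested. Both dim filters left fewer genes to test. The number called was 72 with a mean at or above 8.57 and 144 with a mean of at least 7.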
